A study of Mus musculus with 17 samples.

Results

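The comparison sets GFP+ medullary thymic epithelial cells of wild-type (WT) perinatal mice against their GFP- counterparts. Its members were taken by their titles alone: 3 GFP+ samples, numbered 5, 6 and 7, and 2 GFP- samples, numbered 1 and 2, which make 5 of the 17 samples of the series. All came from C57BL/6 mice of mixed sex that carried the Adig transgene and, in the WT groups, an intact Aire gene. In Adig mice the control regions of Aire drive a fusion of GFP with Igrp, the product of G6pc2, so GFP reports activity of the transgene rather than Aire protein itself. Both groups were sorted on a MoFlo instrument from stroma that was CD45-, Ly51- and high in MHC class II, a gate that leaves out blood cells and Ly51-bearing cortical epithelium. The labels give the perinates an age of 3 days, and the series text gives 0 to 3 days. RNA was extracted with TriZol, amplified, and hybridised to Affymetrix whole-transcript mouse gene arrays, 1 per sample. Beside them stand Aire-knockout (KO) perinate GFP+ cells (3 arrays), WT adult GFP+ cells (3 arrays) and WT adult GFP- cells (3 arrays, adults of 5 weeks), all from Adig mice too. Adult Aire-KO GFP+ cells (3 arrays) also entered the model, and their values are not given here. The labels do not say whether samples of a group are separate animals, litters or pools. The p-values rest on 1 spread per gene, pooled within the 6 groups of all 17 arrays, and that spread may be technical.

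Medullary thymic epithelial cells display proteins of other tissues to developing T cells, and T cells that bind them strongly are deleted or turned into regulatory T cells. Aire is the transcriptional regulator that lets mature medullary cells express many of these tissue-restricted genes. Signals through RANK and CD40 drive immature, MHC class II-low cells to the mature stage at which Aire is made. After that stage some cells take on programmes of other epithelia, such as tuft cells and keratinised epidermis. The medulla is still being built in the days around birth, a period in which Aire is known to matter for tolerance.

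Intensities are linear signals without a unit, and their medians on the 5 arrays lay between 149.8 and 155.1. The 40th percentile, which served as the floor of the filter on dim probe sets, lay between 104.9 and 112.1. Values well under it are dim, and folds that rest on them are less certain in size. Over the 13842 genes tested, log2 values correlated across genes at 0.973 to 0.979 among the GFP+ arrays, at 0.9698 between both GFP- arrays, and at 0.8367 to 0.8586 between the groups. GFP- array 1 stood apart from GFP- array 2. Between them 249 genes were at least 2-fold apart, against 56 to 92 for pairs of GFP+ arrays, and 226 of the 249 were brighter on GFP- array 1. Bpifa2, a secreted salivary protein, read 236, 265 and 274 on the GFP+ arrays, against 10680 on GFP- array 1 and 71.7 on GFP- array 2, a 149-fold gap between samples of the same group. Car6, a carbonic anhydrase of saliva, read 154, 269 and 360 on the GFP+ arrays, against 800 and 52.8 on the GFP- arrays. Genes with such gaps were picked after their values were seen, and their group difference is not a call (adjusted p = 0.236 for Bpifa2 and 0.782 for Car6). With GFP- array 1 left out the difference of Bpifa2 was 1.85, and with GFP- array 2 left out it was -5.37. For Car6 it was 2.22 without GFP- array 1 and -1.70 without GFP- array 2, so for both genes the choice of array turned the sign.

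**Figure D1:**
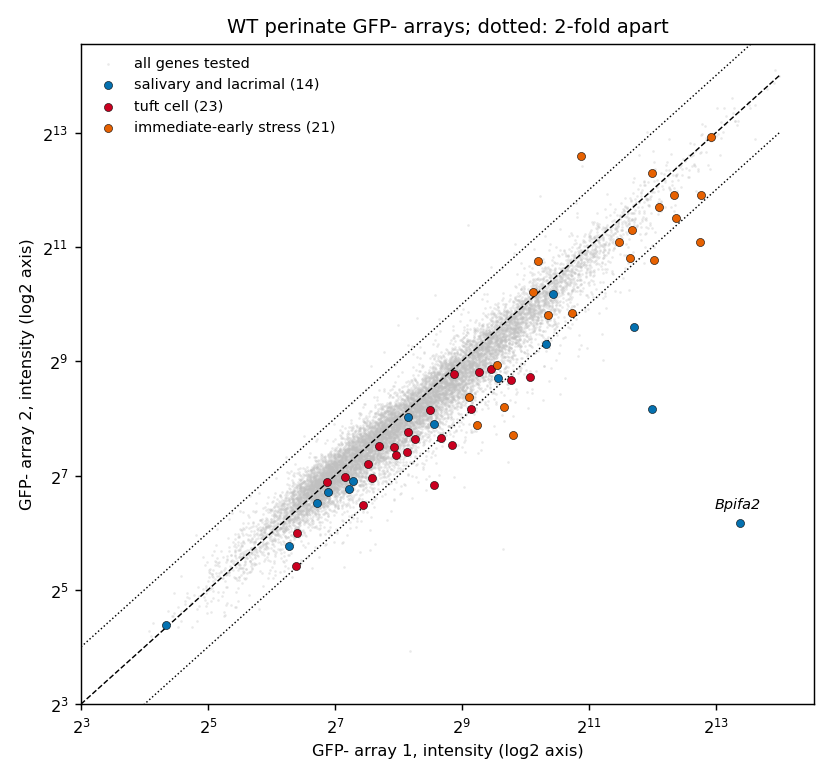
Intensity (log2 axes) of each tested gene on GFP- array 1 (horizontal) and GFP- array 2 (vertical) of WT perinates, with 14 salivary and lacrimal, 23 tuft cell and 21 immediate-early stress genes coloured and dotted lines at 2-fold. Of the 249 genes at least 2-fold apart 226 lie below the diagonal, brighter on GFP- array 1, and Bpifa2 lies farthest from it.

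The cells carried epithelial transcripts in both groups. Over 10 markers of thymic epithelium the summed intensity was 26790 to 31450 on the GFP+ arrays and 31920 to 33970 on the GFP- arrays. Krt8, a keratin of simple epithelia, read 6561, 5657 and 5754 on the GFP+ arrays, against 7532 and 5539 on the GFP- arrays, so the groups overlapped. Epcam, an epithelial adhesion molecule, read 3565, 3841 and 2640 in GFP+, against 1967 and 2388 in GFP-. Krt18, the partner keratin of Krt8, read 5178, 5534 and 4626 in GFP+, against 8160 and 7837 in GFP-. Of the 10 markers, 3 were higher and 4 lower in GFP+ cells, and the lower count was 2 without GFP+ array 5, without GFP+ array 7 or without GFP- array 2. The call of Epcam was lost without GFP- array 1 (0.47, adjusted p = 0.0727).

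GFP+ and GFP- perinate cells differed over a large part of the transcriptome. In limma's moderated test with Benjamini-Hochberg adjustment over all 13842 genes, 3176 genes (22.9%) were higher and 2839 (20.5%) lower in GFP+ cells at an adjusted p under 0.05, together 6015 (43.5%). At least 2-fold differences were called for 1101 genes (7.95%) upwards and 717 (5.18%) downwards, and at least 8-fold differences for 47 (0.34%) and 9 (0.065%). For 3998 genes (28.9%) every GFP+ array lay above both GFP- arrays, and for 3821 (27.6%) every GFP+ array lay below them. The median log2 difference over all tested genes was 0.000343. Of the calls in either direction 52.8% were higher, a share that became 59.3% without GFP- array 1 and 47.3% without GFP- array 2, and 49.8% after quantile normalization. Throughout, a difference is the log2 of GFP+ over GFP- with the standard error of the limma fit after ±, and array values are given in the order GFP+ 5, 6 and 7, then GFP- 1 and 2. Counts of list members called in perinates are to be read against the shares of 22.9% higher and 20.5% lower over all genes.

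The sort itself can be read from the genes it used, which are therefore a check and not a finding. G6pc2, whose product is part of the reporter fusion, read 7586, 7948 and 7144 on the GFP+ arrays, against 254 and 429 on the GFP- arrays. Aire read 4891, 4094 and 5336 in GFP+ cells, against 270 and 351 in GFP- cells, and no arrays of the groups overlapped for either gene. The differences were 4.52 ± 0.16 for G6pc2 (adjusted p = 6.23e-12) and 3.95 ± 0.23 for Aire (adjusted p = 1.41e-09). On the arrays labelled KO perinate GFP+ the Aire probe set read 4072, 6000 and 5744, overlapping the WT GFP+ arrays. It therefore does not check the KO label, and whether its probes lie outside the deleted part was not tested. Whether the G6pc2 probes read the transgene or the native gene was not tested. H2-Aa, an MHC class II chain on whose protein both groups were gated as high, read 10980, 10750 and 10610 in GFP+ cells, against 7036 and 9114 in GFP- cells, a 1.35-fold difference whose call was lost without GFP- array 1 (0.24, adjusted p = 0.0988). Enpep encodes Ly51, against which the gate selected. It read 173, 211 and 177 in GFP+ cells and 147 and 134 in GFP- cells (0.41 ± 0.14, adjusted p = 0.0281), a call lost without GFP+ array 6 (0.32) and without GFP- array 1 (0.48) or 2 (0.34).

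The promoters of the genes that moved most differed in letters. RefSeq promoters of assembly GRCm38.p6 were found for 10989 of the 13842 tested genes, and a window of 120 bases was read, 100 before to 20 after the first listed start. The motif TATAAA on the sense strand occurred in 3.15% of all these windows (346 genes). It occurred in 8.6% of the 860 windows of genes called at least 2-fold higher, in 3.83% of the 522 windows of genes called at least 2-fold lower, and in 9.09% of the 44 windows of genes called at least 8-fold higher. GGGCGG on either strand stood in 49% of all windows, in 34.4% of those at least 2-fold higher, in 55.2% of those at least 2-fold lower, and in 13.6% of those at least 8-fold higher. The median number of CG dinucleotides was 9 over all windows, 4 for the genes at least 2-fold higher, 9 for those at least 2-fold lower and 2 for those at least 8-fold higher. Among the 15 genes with the largest difference in each direction, 12 higher and 11 lower ones had a window, with 0 to 8 CG dinucleotides (median 2) in the higher and 1 to 27 (median 13) in the lower ones. Windows of the 4 largest differences with a promoter in each direction are shown, 5′ to 3′ on the gene's strand, with CG dinucleotides and TATAAA in capitals. The higher genes are Ucma at chr2:4976022-4976141 (+), G6pc2 at chr2:69210973-69211092 (+), Cxcl13 at chr5:95956839-95956958 (+) and Serpinb12 at chr1:106934349-106934468 (+). The lower genes are Gnat3 at chr5:17962470-17962589 (+), Slc38a4 at chr15:97055937-97056056 (-), Glrb at chr3:80913641-80913760 (-) and Fat3 at chr9:16502035-16502154 (-).
Ucma: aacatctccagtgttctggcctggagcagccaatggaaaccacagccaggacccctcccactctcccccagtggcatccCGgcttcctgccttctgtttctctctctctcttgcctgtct
G6pc2: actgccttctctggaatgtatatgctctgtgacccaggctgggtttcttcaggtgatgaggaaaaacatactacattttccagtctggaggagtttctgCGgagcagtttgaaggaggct
Cxcl13: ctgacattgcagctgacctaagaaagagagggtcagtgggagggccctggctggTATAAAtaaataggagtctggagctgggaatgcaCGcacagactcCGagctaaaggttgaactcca
Serpinb12: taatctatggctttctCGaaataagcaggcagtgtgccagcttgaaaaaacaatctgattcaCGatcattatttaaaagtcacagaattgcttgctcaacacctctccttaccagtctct
Gnat3: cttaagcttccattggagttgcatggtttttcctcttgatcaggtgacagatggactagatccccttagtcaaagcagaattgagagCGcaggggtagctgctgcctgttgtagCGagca
Slc38a4: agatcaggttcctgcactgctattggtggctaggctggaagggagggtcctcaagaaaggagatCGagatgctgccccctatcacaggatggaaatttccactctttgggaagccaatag
Glrb: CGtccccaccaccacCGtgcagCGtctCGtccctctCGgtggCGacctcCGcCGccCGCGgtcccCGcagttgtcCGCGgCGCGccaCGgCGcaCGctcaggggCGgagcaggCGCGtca
Fat3: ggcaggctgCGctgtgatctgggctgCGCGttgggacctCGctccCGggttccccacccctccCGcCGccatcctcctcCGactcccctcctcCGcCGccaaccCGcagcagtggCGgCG
The windows of the higher genes hold 1 CG dinucleotide in Ucma, 1 in G6pc2, 2 in Cxcl13 and 2 in Serpinb12. Those of the lower genes hold 2 in Gnat3, 1 in Slc38a4, 21 in Glrb and 13 in Fat3, so the lower genes include windows as poor in CG as those of the higher genes. Among the windows shown TATAAA was found in Cxcl13, 46 bases before the start. These matches describe letters in 1 window per gene, and binding by any factor was not tested. G6pc2 is part of the reporter used for the sort, and whether its signal came from the native promoter shown was not tested.

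The largest differences upwards ran from 13.0-fold to 24.3-fold and joined Aire and G6pc2 with genes known from many different tissues. Ucma, a cartilage matrix protein, read 3011, 2154 and 2537 in GFP+ cells, against 107 and 102 in GFP- cells (4.60 ± 0.20, adjusted p = 8.35e-11). Kynu, kynureninase of tryptophan breakdown, read 1524, 1474 and 1694 in GFP+, against 65.7 and 74.0 in GFP-. Cxcl13, the chemokine that draws B cells through CXCR5, read 2904, 2733 and 2722 in GFP+, against 161 and 102 in GFP- (4.44 ± 0.30, adjusted p = 6.47e-09). Every GFP- value of these genes lay near or below the 40th percentile of its array except that of Cxcl13 on GFP- array 1. Lyz2, lysozyme of macrophages and neutrophils, read 2912, 3665 and 3366 in GFP+ cells, against 199 and 196 in GFP- cells (4.06 ± 0.11, adjusted p = 4.22e-13). Serpinb12, of the serpin protease inhibitors, was 19.3-fold higher, and Tvp23a, a Golgi membrane protein, 15.8-fold. H2-Eb2, an MHC class II beta chain, read 5530, 5427 and 5603 in GFP+, against 299 and 432 in GFP- (3.94 ± 0.14, adjusted p = 8.89e-12).

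Genes of milk, brain, steroid and amine metabolism stood in the same range. Csn2, the milk protein beta-casein, read 5515, 4803 and 4044 in GFP+ cells, against 408 and 321 in GFP- cells (3.71 ± 0.19). Hdc, which makes histamine, read 3450, 2597 and 2723 in GFP+, against 256 and 186 in GFP- (3.73 ± 0.24). Fabp7, the fatty acid-binding protein of brain, was 14.2-fold higher, and Cldn13, a claudin, 13.0-fold. Dnmt3l, the catalytically inactive cofactor of de novo DNA methylation, read 919, 862 and 818 in GFP+, against 64.8 and 56.0 in GFP- (3.84 ± 0.13, adjusted p = 6.23e-12). Hsd3b6, a steroid dehydrogenase, read 433, 498 and 410 in GFP+, against 33.8 and 31.5 in GFP-. KO perinate GFP+ cells share the 3 WT GFP+ arrays as their comparator, so their values are only set beside these. Hsd3b6 read 26.7, 30.2 and 25.6 on the KO GFP+ arrays and Cxcl13 read 244, 133 and 142, while Csn2 read 6090, 5977 and 5599 and Dnmt3l read 1122, 1194 and 1163. Cxcl13 and Hsd3b6 therefore had KO GFP+ values in the range of the WT GFP- arrays or close to it, and Csn2 and Dnmt3l had KO GFP+ values above every WT GFP+ array.

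**Figure D2:**
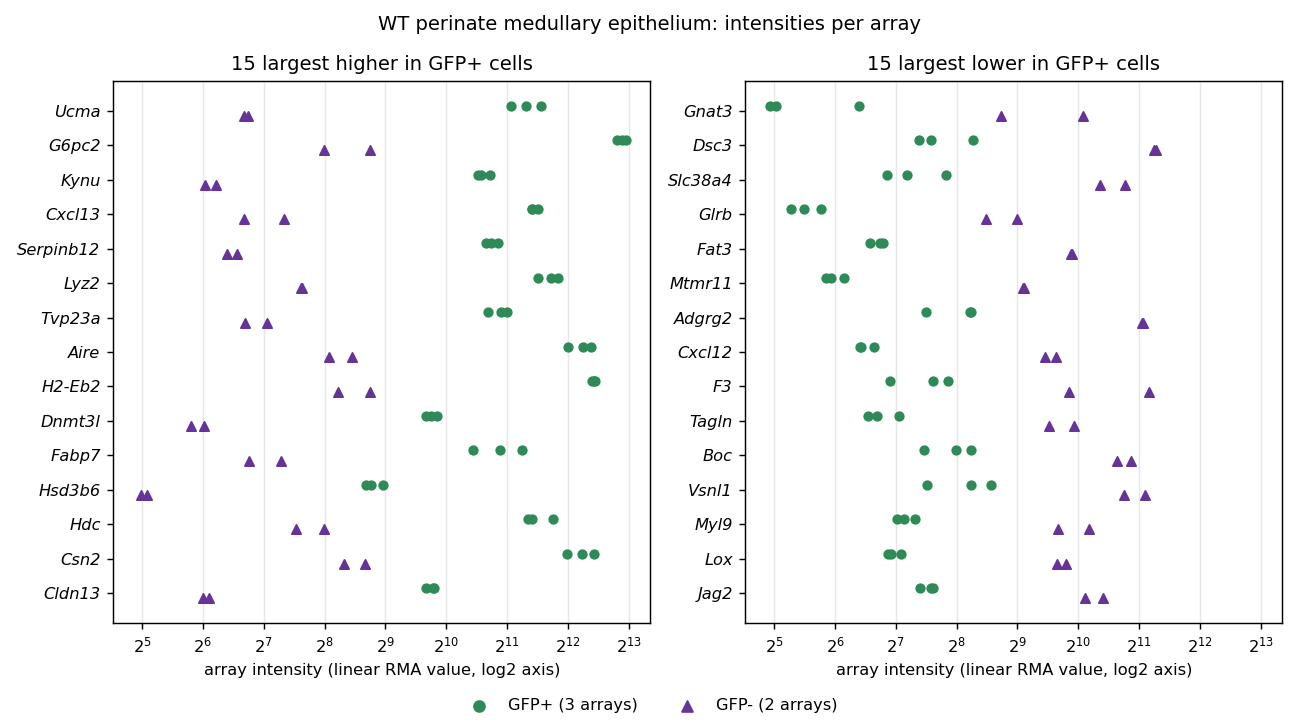
Intensity (log axis) of the 15 genes with the largest difference in each direction, with 1 point per WT perinate array. GFP+ and GFP- arrays are separated for each gene, from 13.0-fold to 24.3-fold for the higher genes and from 6.66-fold to 15.5-fold for the lower ones.

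Downwards the largest differences ran from 6.66-fold to 15.5-fold and held genes of chemosensing, adhesion, contractile fibres and signalling. Gnat3, the G protein gustducin of taste and tuft cells, read 32.6, 83.8 and 30.4 in GFP+ cells, against 1079 and 422 in GFP- cells (-3.95 ± 0.54, adjusted p = 1.55e-05). Dsc3, a desmosomal cadherin of basal epithelium, read 166, 309 and 191 in GFP+, against 2426 and 2479 in GFP- (-3.52 ± 0.23, adjusted p = 4.56e-09). Cxcl12, the chemokine that draws thymic progenitors through CXCR4, read 99.9, 86.0 and 84.6 in GFP+, against 704 and 790 in GFP- (-3.05 ± 0.13, adjusted p = 6.73e-11). For Dsc3 and Cxcl12 both GFP- arrays gave nearly the same level, while for Gnat3 GFP- array 1 was more than 2-fold above GFP- array 2. Slc38a4, an amino acid transporter, read 146, 227 and 116 in GFP+, against 1753 and 1318 in GFP-. Glrb, the beta subunit of the glycine receptor, read 45.0, 54.8 and 38.8 in GFP+, against 510 and 359 in GFP-. Fat3, an atypical cadherin, read 107, 110 and 95.2 in GFP+, against 958 and 938 in GFP-.

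Jag2, a Notch ligand, was 6.66-fold lower in GFP+ cells, and Boc, a co-receptor for hedgehog ligands, 7.20-fold lower. Tagln and Myl9, which belong to the contractile apparatus of smooth muscle, were 7.80-fold and 6.79-fold lower, and Lox, which cross-links collagen, 6.79-fold lower. F3, tissue factor of the clotting cascade, read 233, 196 and 119 in GFP+ cells, against 2287 and 923 in GFP- cells. The other genes of this set were Mtmr11, Adgrg2, an adhesion receptor, and Vsnl1, a neuronal calcium sensor, at 8.73-fold, 8.36-fold and 7.04-fold lower.

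Receptors and transducers of the RANK and CD40 pathways were mostly higher in GFP+ cells. Of 25 tested members of RANK, CD40 and lymphotoxin receptor signalling 15 were higher and 5 lower, with a median difference of 0.56. Tnfrsf11a, which encodes RANK, read 1634, 1475 and 1629 in GFP+ cells, against 496 and 595 in GFP- cells (1.54 ± 0.15, adjusted p = 4.39e-07). Cd40 read 2936, 2608 and 2392 in GFP+, against 581 and 574 in GFP- (2.19 ± 0.12, adjusted p = 8.69e-10). Tnfrsf11b, the soluble decoy osteoprotegerin that binds the RANK ligand, read 2614, 2336 and 2505 in GFP+, against 521 and 321 in GFP- (2.60 ± 0.18). The receptor, its decoy and the adaptors Traf1 (3.01-fold) and Traf6 (2.57-fold) were thus all higher. Lower members were Tnfrsf1a, the type 1 receptor for tumour necrosis factor, at 442, 470 and 412 in GFP+ against 1824 and 1256 in GFP- (-1.78 ± 0.15), and Ltbr, the lymphotoxin receptor, at 246, 244 and 186 in GFP+ against 515 and 366 in GFP- (-0.96 ± 0.15). Without GFP- array 1 the lower count was 3 in place of 5.

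Transcription factors of the medulla gave calls in both directions. Of 21 tested regulators 7 were higher and 5 lower in GFP+ cells, against 22.9% and 20.5% of all genes, and 9 did not pass. The 7 higher members included Aire, whose control regions drive the GFP used for the sort, so its call is not a finding. The median of the 21 regulators was -0.06. It was 0.358 without GFP- array 1, -0.16 without GFP- array 2, and between -0.112 and 0.0768 when single GFP+ arrays were left out. Fezf2, which controls tissue antigens apart from Aire, read 2270, 2605 and 3417 in GFP+, against 471 and 464 in GFP- (2.54 ± 0.17, adjusted p = 8.49e-09). Irf4, a regulator downstream of NF-kB, read 591, 817 and 835 in GFP+, against 102 and 98.9 in GFP- (2.88 ± 0.21). Both factors were more than 5-fold higher and their groups did not overlap. Spib, which also directs microfold cells, was 2.28-fold higher and Tbx21, the factor T-bet, 2.78-fold. Lower were Myc, Klf5, Ets2, Irf7 and Ikzf2, of which Klf5 read 572, 574 and 512 in GFP+ cells, against 1831 and 705 in GFP- cells. Without GFP- array 1 Ikzf2 alone was called lower, and the differences of Myc and Klf5 were -0.48 and -0.35.

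Genes of antigen presentation were higher by unequal amounts. Of 15 tested genes of MHC class II presentation 10 were higher and 2 lower in GFP+ cells, with a median of 0.47. Ctsh, a lysosomal cathepsin, read 2762, 2631 and 1937 in GFP+, against 447 and 312 in GFP- (2.69 ± 0.16). H2-Ob and H2-Oa, the chains of the peptide-editing modulator H2-O, were 5.25-fold and 3.07-fold higher. Ctss, the cathepsin that trims the invariant chain, was 3.88-fold higher, and Ifi30, a lysosomal thiol reductase, 2.88-fold. The lower count was 0 without GFP- array 1 and 1 without GFP- array 2 or without GFP+ array 5 or 6. Of 14 tested members of MHC class I and the immunoproteasome 6 were higher and 1 lower, with a median of 0.20. Psme2 and Psme1, which form the proteasome activator PA28, were 3.27-fold and 2.01-fold higher. Without GFP+ array 6 or without GFP- array 2 the higher count for class I was 3, and without GFP+ array 5 or 7 the lower count was 0.

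Ligands that instruct T cells were higher more often than lower. Of 16 tested costimulatory and coinhibitory ligands 8 were higher and 2 lower in GFP+ cells, with a median of 0.70. Cd80, the ligand of CD28 and CTLA-4, read 3561, 3419 and 3706 in GFP+, against 671 and 384 in GFP- (2.81 ± 0.18, adjusted p = 4.06e-09). Its relative Cd86 read 273, 315 and 248 in GFP+, against 47.7 and 47.3 in GFP- (2.55 ± 0.14). Icosl, the ligand of ICOS, read 8765, 9575 and 9355 in GFP+, against 2171 and 2785 in GFP- (1.91 ± 0.14). The GFP+ values of these ligands lay within narrow bands that no GFP- array reached. Cd70, the ligand of CD27, was 2.96-fold higher. Lgals9, the lectin galectin-9, was lower at 831, 1387 and 1102 in GFP+, against 4488 and 3165 in GFP- (-1.80 ± 0.20), and Cd276, also called B7-H3, was 1.46-fold lower. Ctla4 itself read 98.9, 61.8 and 62.7 in GFP+, against 56.4 and 54.2 in GFP-, and did not pass (0.39 ± 0.26, adjusted p = 0.244).

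Chemokines that guide thymocytes and dendritic cells were higher more often than lower. Of 22 tested chemokines 11 were higher and 2 lower in GFP+ cells, with a median of 0.70. The ligands of CCR4, which attract thymocytes into the medulla, were both higher: Ccl22 read 873, 1195 and 988 in GFP+, against 137 and 131 in GFP- (2.91 ± 0.30), and Ccl17 read 510, 731 and 746 in GFP+, against 119 and 147 in GFP- (2.30 ± 0.22). Ccl25, the ligand of CCR9, read 4984, 5032 and 3561 in GFP+, against 1263 and 1593 in GFP- (1.66 ± 0.20). Ccl20, the ligand of CCR6, was 3.77-fold higher. The 2 lower chemokines were Cxcl12, described above, and Cx3cl1, fractalkine, at 289, 329 and 345 in GFP+ against 647 and 710 in GFP- (-1.08 ± 0.14). KO GFP+ cells read 655, 336 and 331 for Ccl22 and 298, 209 and 260 for Ccl17, all below the WT GFP+ values. No probe set carried the symbol Ccl21a alone, so that chemokine of immature medullary cells is not given.

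Transcripts commonly cited as Aire-induced were higher in GFP+ cells, as 11 of 13 tested members, with 1 lower and a median of 1.29. These lists were drawn up with earlier results of these data known and are a description. Klk1b8, a kallikrein of salivary gland, read 946, 998 and 1096 in GFP+, against 149 and 109 in GFP- (2.99 ± 0.20), and the KO GFP+ arrays read 35.5, 33.1 and 41.2. Pcp4, a calmodulin-binding peptide of neurons, read 1124, 1004 and 974 in GFP+, against 123 and 129 in GFP-, with 57.4, 71.5 and 67.8 in KO GFP+ cells. In these genes the KO GFP+ arrays lay below the WT GFP- arrays, which lay below the WT GFP+ arrays. Csn1s1, an alpha casein, was 9.07-fold higher, S100a8, a calcium-binding protein of neutrophils, 5.88-fold, and Sst, somatostatin, 2.44-fold. Muc5b, a gel-forming mucin, was the lower member at 219, 152 and 143 in GFP+, against 1053 and 289 in GFP- (-1.72 ± 0.35). The median of the list was 1.72 without GFP- array 1 and 0.996 without GFP- array 2.

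The lists of gut, liver, brain and pancreas held more higher than lower calls. A gene passed the filter on any 2 arrays, so a dim gene could enter through GFP+ arrays alone. That can favour higher calls among tested members. With no filter on intensity the median was 0.867 for gut and stomach in place of 0.987, and 0.624 for liver in place of 0.749. Of 25 tested genes of gut and stomach 19 were higher and 0 lower. Atp4a, the gastric proton pump, read 782, 464 and 494 in GFP+, against 101 and 107 in GFP- (2.44 ± 0.21). Apoa4, an apolipoprotein of the small intestine, read 910, 1123 and 1058 in GFP+, against 224 and 194 in GFP- (2.30 ± 0.18). Of 19 tested liver genes 16 were higher and 0 lower, with a median of 0.75. Serpinc1, which encodes antithrombin, read 898, 817 and 906 in GFP+, against 99.8 and 91.6 in GFP- (3.19 ± 0.18), and KO GFP+ cells read 986, 927 and 857. Tdo2, which breaks down tryptophan, was 7.95-fold higher, and Cyp1a2, a drug-metabolising enzyme, 6.26-fold.

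Of 22 tested genes of brain and neuropeptides 17 were higher and 0 lower. Syt1, the calcium sensor of synaptic vesicles, read 4545, 4320 and 5189 in GFP+, against 754 and 622 in GFP- (2.77 ± 0.14), with 4451, 5512 and 5417 on the KO GFP+ arrays. Tac2, the precursor of neurokinin B, read 1059, 943 and 1451 in GFP+, against 306 and 186 in GFP- (2.25 ± 0.24), with 35.1, 30.3 and 40.1 on the KO GFP+ arrays. The pair differed in the KO GFP+ cells, which for Syt1 overlapped the WT GFP+ cells and for Tac2 lay below the WT GFP- cells. Of 14 tested islet genes 10 were higher and 2 lower. Chga, chromogranin A, read 677, 497 and 803 in GFP+, against 188 and 218 in GFP- (1.68 ± 0.18), Pyy, a peptide hormone, was 2.52-fold higher and Iapp, amylin, 2.28-fold. Isl1, an islet transcription factor, was lower at 197, 207 and 261 in GFP+ against 563 and 506 in GFP-, and the other lower call was lost without GFP+ array 5 or without either GFP- array. Of 10 tested digestive enzymes of the pancreas 5 were higher and 0 lower, led by Pla2g1b, a phospholipase, at 839, 998 and 1483 in GFP+ against 163 and 192 in GFP- (2.60 ± 0.25).

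Other tissues gave fewer or mixed calls, to be read against 22.9% higher and 20.5% lower over all genes. Of 6 tested genes of milk and seminal fluid 5 were higher, among them Csn1s2a, a casein, at 262, 333 and 371 in GFP+ against 43.6 and 42.0 in GFP-. Of 14 salivary and lacrimal genes 6 were higher and 1, the water channel Aqp5, lower. Their median was 0.45, but 0.96 without GFP- array 1 and -0.02 without GFP- array 2, which also moved the lower count to 3. Obp2a, an odorant-binding protein, was 5.24-fold higher. Muscle gave 5 higher and 3 lower of 18, with Tnni1, slow troponin I, 3.40-fold higher and Myl1, a myosin light chain, 2.33-fold lower, and the lower count was 1 without GFP+ array 7. Of 6 tested genes of retina and lens 2 were higher, with Cryaa, the lens protein alpha-A crystallin, at 630, 527 and 532 in GFP+ against 216 and 162 in GFP- (1.59 ± 0.14). Of 4 tested testis genes Prm1, a protamine, and Fabp9 were higher, or 1 without GFP- array 2. With no filter on intensity 6 testis and 6 retina and lens genes were higher. Many listed genes were dim and went untested: with no filter on intensity the medians were 0.805 for brain in place of 1.24, 0.307 for islets in place of 0.992, 0.224 for digestive enzymes in place of 0.516 (0.292 without GFP- array 2), 0.221 for milk and seminal fluid in place of 2.12, 0.144 for salivary genes in place of 0.447, and 0.0932 for testis in place of 0.516. With a filter at the 60th percentile fewer members remained, and the higher counts were 10 for liver and 3 for digestive enzymes.

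Genes reported as linked to Fezf2, a list that holds Fezf2 itself, were higher as 7 of 10 tested members, with 0 lower. Beside Fezf2 itself stood Calb1, a calcium-binding protein of neurons and kidney, at 200, 220 and 186 in GFP+ against 33.4 and 37.8 in GFP- (2.50 ± 0.18). Fabp9, a fatty acid-binding protein of sperm, read 140, 543 and 608 in GFP+, against 126 and 57.0 in GFP-, so GFP+ array 5 lay close to GFP- array 1, and its call was lost without GFP- array 2 (1.51, adjusted p = 0.0563). Without GFP- array 2 the higher count was 4 in place of 7.

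**Figure D3:**
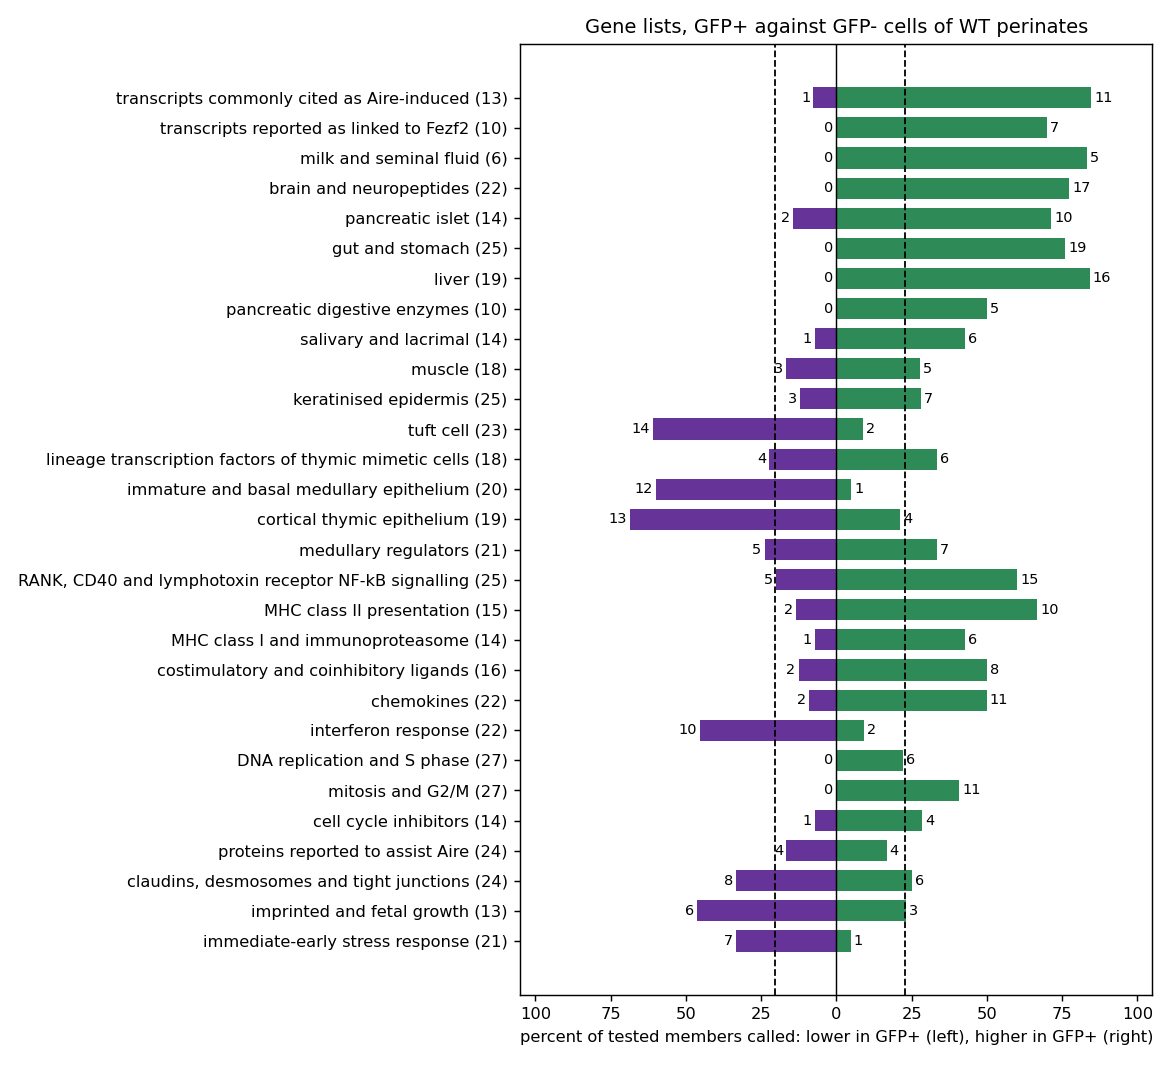
Percent of the tested members of each gene list called higher (right) and lower (left) in GFP+ than in GFP- WT perinate cells. Dashed lines mark the share over all tested genes, 22.9% higher and 20.5% lower. Dim genes could pass the filter through GFP+ arrays alone, which can favour higher calls among tested members.

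Tuft cell genes were lower in GFP+ cells. Of 23 tested members 14 were lower and 2 higher, with a median of -0.86. Plcb2, the phospholipase of taste signalling, read 162, 155 and 107 in GFP+, against 702 and 467 in GFP- (-2.04 ± 0.23, adjusted p = 1.6e-06). Pou2f3, the transcription factor that tuft cells require, read 235, 289 and 242 in GFP+, against 614 and 446 in GFP- (-1.04 ± 0.24, adjusted p = 0.00204). Alox5, which starts leukotriene synthesis, read 108, 146 and 120 in GFP+, against 562 and 286 in GFP- (-1.70 ± 0.30). GFP- array 1 was the higher of its pair for 22 of the 23 genes. Without it 8 members were lower and the median was -0.53, and without GFP- array 2 the median was -1.18. The 2 higher members were Gfi1b (1.61-fold) and Itpr3, a calcium channel (1.32-fold), whose call was lost without GFP- array 2 (0.35, adjusted p = 0.0687). In bulk samples fewer cells of a type and less RNA per cell cannot be told apart.

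Keratinised epidermis gave no common direction: of 25 tested members 7 were higher and 3 lower. Their median was -0.09, but 0.227 without GFP- array 1 and -0.424 without GFP- array 2. Krt77, a suprabasal keratin, read 500, 860 and 421 in GFP+ cells, against 256 and 211 in GFP- cells (1.28 ± 0.24), and Alox12b, a lipoxygenase of the skin barrier, was 2.65-fold higher. Krtdap, a peptide of differentiating keratinocytes, read 225, 498 and 364 in GFP+, against 1536 and 1213 in GFP- (-1.99 ± 0.50), and Sbsn, suprabasin, was 1.70-fold lower, a call lost without GFP- array 1 (-0.59, adjusted p = 0.105). Lower calls numbered 1 without GFP- array 1 and 6 without GFP- array 2. Lineage transcription factors of mimetic cells gave 6 higher and 4 lower of 18, with Foxa1, an endodermal factor, at 613, 536 and 688 in GFP+ against 339 and 192 in GFP- (1.26 ± 0.21), Hnf4g, of gut epithelium, 2.55-fold higher, and Pax1, a factor of the pharyngeal pouch, at 612, 542 and 709 in GFP+ against 2412 and 1969 in GFP- (-1.82 ± 0.15).

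Genes of immature and basal medullary epithelium were lower in GFP+ cells. Of 20 tested members 12 were lower and 1 higher, with a median of -0.84, and the higher one was Tnfrsf11b, given above. Bcam, a laminin receptor, read 255, 345 and 305 in GFP+, against 1608 and 1328 in GFP- (-2.29 ± 0.18, adjusted p = 2.81e-08). Trp63, the master factor of basal epithelia, read 481, 604 and 706 in GFP+, against 1566 and 1973 in GFP- (-1.57 ± 0.16, adjusted p = 7.4e-07). Lifr, the receptor for leukaemia inhibitory factor, read 774, 1112 and 945 in GFP+, against 3298 and 3926 in GFP- (-1.95 ± 0.26). Pdpn, podoplanin, and Fst, follistatin, were 3.05-fold and 2.79-fold lower. Krt14, a basal keratin, read 1083, 2629 and 1853 in GFP+, against 3327 and 3414 in GFP-, a wide spread within GFP+ cells that stayed below both GFP- arrays, and its call was lost without GFP- array 2 (-0.94, adjusted p = 0.051). Without GFP- array 1 the count of higher members was 4.

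Transcripts typical of cortical thymic epithelium were lower too, although the gate had selected against Ly51. Of 19 tested members 13 were lower and 4 higher, with a median of -1.03. Psmb11, the thymoproteasome subunit beta5t, read 117, 108 and 108 in GFP+ cells, against 383 and 313 in GFP- cells (-1.64 ± 0.12, adjusted p = 2.35e-08). Prss16, a thymus-specific serine protease, read 1149, 711 and 337 in GFP+, against 3099 and 3286 in GFP- (-2.29 ± 0.36). Ackr4, a scavenging receptor for homeostatic chemokines, read 93.6, 75.6 and 77.8 in GFP+, against 384 and 713 in GFP- (-2.67 ± 0.21). GFP+ levels of Psmb11 and Ackr4 lay at or below the floor of the filter, while Prss16 was bright and spread more than 3-fold among GFP+ arrays. Kitl, the ligand of KIT, and Ly75, an endocytic receptor, were 2.84-fold and 2.80-fold lower. The higher members included Ccl25 and Enpep, given above, and Cd83, which stabilises MHC class II (1.78-fold, not called without GFP- array 1), and their number was 2 without GFP- array 1 and again without GFP- array 2.

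Cell cycle genes differed by small amounts in perinates. Mki67, the proliferation antigen, read 1244, 1681 and 1543 in GFP+ cells, against 1194 and 1157 in GFP- cells, and did not pass (0.33 ± 0.16, adjusted p = 0.106), though it did without GFP+ array 5 (0.45, adjusted p = 0.0362). Of 27 tested genes of mitosis and G2/M 11 were higher and 0 lower, with a median of 0.45. Nusap1, a spindle protein, read 917, 1235 and 1155 in GFP+, against 567 and 563 in GFP- (0.95 ± 0.17, adjusted p = 0.000258). Cdk1, the mitotic kinase, was 1.81-fold higher. The higher count was 6 without GFP+ array 6 and 4 without GFP- array 2. Of 27 tested genes of DNA replication and S phase 6 were higher and 0 lower, close to the 22.9% over all genes, with Rrm2, of nucleotide synthesis, 1.99-fold higher and Uhrf1, of maintenance methylation, 1.88-fold. Without GFP+ array 6 the lower count for S phase was 2. Of 14 cell cycle inhibitors 4 were higher, among them Cdkn2b (1.61-fold), and 1, Btg2, lower at 924, 998 and 1172 in GFP+ against 3262 and 2517 in GFP- (-1.48 ± 0.22). Without GFP- array 2 that higher count was 2, and the lower count was 2 without GFP- array 2 or GFP+ array 5.

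Interferon and early stress genes held more lower than higher calls. Of 22 tested interferon-response genes 10 were lower and 2 higher, with a median of -0.34. Ddx58, the RNA sensor RIG-I, read 336, 604 and 489 in GFP+, against 1258 and 1135 in GFP- (-1.37 ± 0.24). Irf9, which carries the interferon signal to DNA, read 595, 616 and 600 in GFP+, against 1277 and 983 in GFP- (-0.89 ± 0.14). Oasl1 was higher (1.77-fold), and the count of higher members was 1 without GFP+ array 6 or GFP- array 2. Of 21 immediate-early stress genes 7 were lower, with a median of -0.71, and the single higher call was lost when any of the 5 arrays was left out. Ier3, an early response gene, read 155, 225 and 210 in GFP+, against 752 and 490 in GFP- (-1.64 ± 0.24). Fos, part of AP-1, read 986, 1514 and 724 in GFP+, against 2857 and 2186 in GFP- (-1.28 ± 0.38, adjusted p = 0.0112), which did not pass without GFP- array 1 (-1.09, adjusted p = 0.0927). GFP- array 1 was brighter than GFP- array 2 for 18 of the 22 interferon genes and 16 of the 21 stress genes. Without it the lower counts were 6 and 4, and the stress median was -0.303, against -1.21 without GFP- array 2, which moved the interferon median to -0.515. Early stress genes respond to handling of tissue, and whether the time in digestion or sorting differed between samples was not tested.

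Cell junctions, growth genes and chromatin factors gave calls in both directions, to be read against 22.9% higher and 20.5% lower over all genes. Of 24 tested claudins, desmosome and tight junction genes 6 were higher and 8 lower, with Cldn7 at 744, 649 and 564 in GFP+ against 272 and 186 in GFP- (1.52 ± 0.16) and Cldn8 at 82.9, 63.3 and 54.0 in GFP+ against 294 and 220 in GFP- (-1.95 ± 0.18). Dsp, desmoplakin, was 2.07-fold lower. Of 13 imprinted and fetal growth genes 6 were lower and 3 higher, with Peg3, an imprinted zinc finger gene, at 551, 515 and 658 in GFP+ against 1285 and 1369 in GFP- (-1.22 ± 0.14) and Hmga2, a fetal chromatin protein, 2.18-fold lower. The lower count was 2 without GFP- array 1. Of 24 proteins reported to assist Aire 4 were higher and 4 lower, shares below those of all genes, with 2 higher and 2 lower without GFP- array 1, and 2 higher without GFP+ array 6 or GFP- array 2. Sirt1, a deacetylase reported to act on Aire, read 2134, 1855 and 1957 in GFP+, against 886 and 436 in GFP- (1.67 ± 0.27), while Xrcc5, of DNA end joining, read 183, 280 and 206 in GFP+, against 605 and 764 in GFP- (-1.63 ± 0.25). Of 10 DNA methylation genes 3 were higher, led by Dnmt3l, and 2 lower, with Mbd2, a reader of methylated DNA, 1.87-fold lower. The lower count of methylation genes was 1 without GFP+ array 5, GFP+ array 6 or GFP- array 1, and with only the 5 WT perinate arrays in the model 1 was higher and 1 lower.

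Markers of dendritic cells and macrophages, B cells, fibroblasts and erythroid cells were called higher more often than the 22.9% of all genes, and those of thymocytes and endothelium were not. Of 12 tested markers of dendritic cells and macrophages 10 were higher and 0 lower, and the sum over 15 measured markers was 10470 to 11480 on the GFP+ arrays and 2181 to 2928 on the GFP- arrays. Most of that sum was Lyz2, given above, and Laptm5, a lysosomal protein of blood cells, at 6733, 5581 and 5336 in GFP+ against 1742 and 1005 in GFP- (2.15 ± 0.18). Fcer1g, an Fc receptor chain, was 4.57-fold higher. Adgre1, which encodes F4/80 of macrophages, read 116, 162 and 89.1 in GFP+, against 42.5 and 37.2 in GFP- (1.58 ± 0.20, adjusted p = 7.96e-06). No marker read 0. The dim genes Itgax, Siglech and Clec9a, which define dendritic cell types, went untested. Itgax read 67.1 to 89.2 in GFP+ and 56.8 to 62.9 in GFP- cells without overlap, while Siglech (62.2 to 76.4 in GFP+, 59.6 to 80.1 in GFP-) and Clec9a (21.2 to 34.0 in GFP+, 23.2 to 25.1 in GFP-) overlapped. Zbtb46, a factor of classical dendritic cells, read 144, 156 and 132 in GFP+ against 123 and 118 in GFP- and did not pass. With a filter at the 60th percentile 3 members were higher. Of 5 tested B cell markers 3 were higher, with sums of 1260 to 1295 on the GFP+ arrays and 702.6 to 731.6 on the GFP- arrays. Cd79b, of the B cell receptor, was 2.28-fold higher. Cd79a, Ms4a1 and Cd22, which also define B cells, were too dim to be tested. For each every GFP+ array lay above both GFP- arrays, a pattern that 28.9% of all tested genes showed. Cd79a read 36.6 to 63.5 in GFP+ and 30.1 to 36 in GFP- cells, Ms4a1 73.2 to 90.3 in GFP+ and 29.6 to 40.02 in GFP- cells, and Cd22 94.0 to 104.7 in GFP+ and 57.7 to 62.8 in GFP- cells. With no filter on intensity 6 B cell markers were called higher, and with a filter at the 60th percentile 1 was.

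Of 13 fibroblast markers 6 were higher and 0 lower, with sums of 12830 to 13380 on the GFP+ arrays and 8845 to 9107 on the GFP- arrays. Vim, vimentin, was 1.66-fold higher and Pdgfrb, a growth factor receptor, 3.88-fold, while Pdgfra and Col3a1, which define fibroblasts, did not pass. Of 9 tested markers of thymocytes Cd4 alone was higher (3 were without GFP+ array 7), at 291, 336 and 317 in GFP+ against 96.3 and 99.5 in GFP- (1.68 ± 0.21). The thymocyte sums were 1346 to 1850 on the GFP+ arrays and 1154 to 1324 on the GFP- arrays, and Cd3d, Rag2, Ptcra and Dntt lay between 14.0 and 95.5. Endothelial markers gave 2 higher of 9, or 0 without GFP- array 2 (sums of 1390 to 1514 in GFP+ and 1211 to 1319 in GFP- cells), and the 3 tested erythroid markers were all higher (sums of 627.1 to 668.7 in GFP+ and 333.2 to 355 in GFP- cells). The part of other cells in the differences of Lyz2, of MHC class II and costimulatory genes, and of tissue-restricted genes was not tested.

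The same sort in adults gave a related but distinct picture. The adult comparison shares no array with the perinate comparison, and in it 3422 genes (24.7%) were higher and 2788 (20.1%) lower in GFP+ cells at an adjusted p under 0.05. Across the 13842 genes the perinate and adult differences correlated at 0.642 (Pearson) and 0.62 (Spearman), a description over genes, which are not independent. Of the 1101 genes called at least 2-fold higher in perinates 514 were so in adults, which is 46.7% of the perinate and 63.6% of the 808 adult genes (5.84% of all tested). Downwards 180 of the 717 perinate genes were shared, 25.1% of them and 31.9% of the 565 adult genes (4.08% of all tested). The difference between both effects, tested by an interaction term in the same model, was called positive for 1478 genes (10.7%) and negative for 1283 (9.27%), together 19.9% of the genes tested. In what follows a positive interaction means a larger GFP+ over GFP- difference in perinates than in adults. List members with a called interaction are to be read against 10.7% positive and 9.27% negative over all genes. Those called in adults are to be read against 24.7% higher and 20.1% lower.

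**Figure D4:**
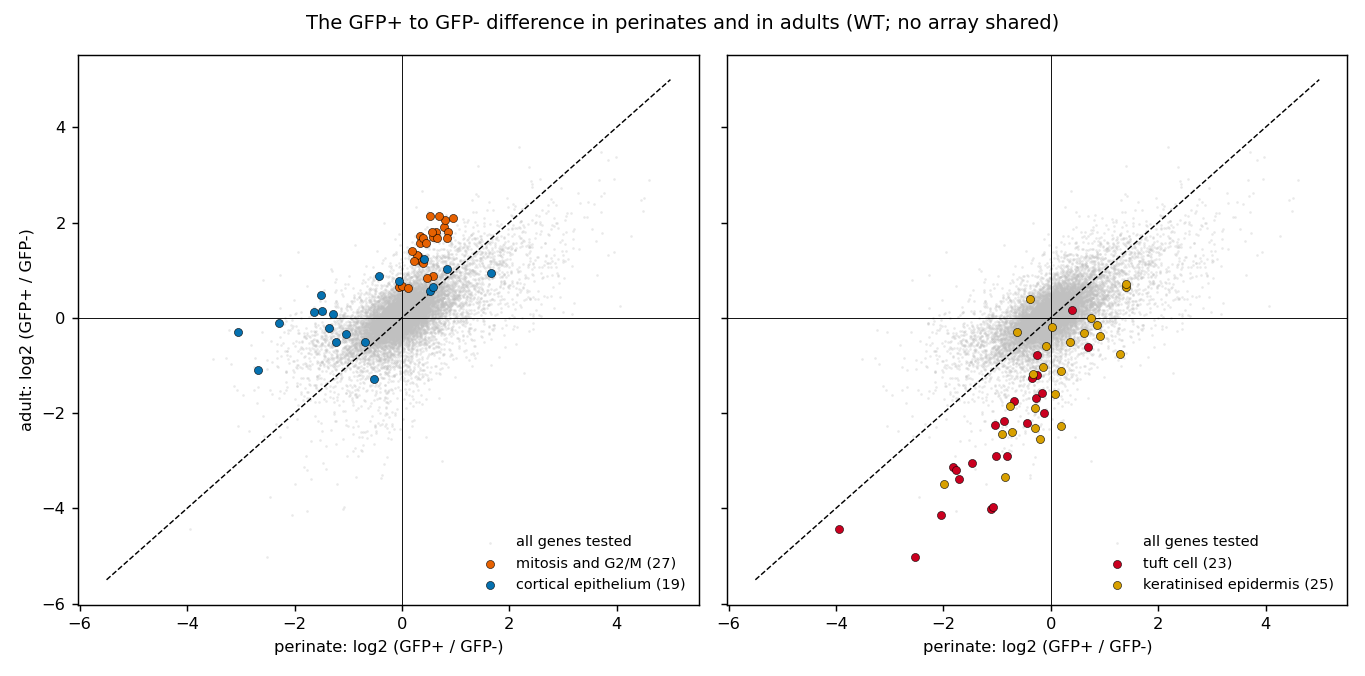
Log2 difference of GFP+ over GFP- cells in WT perinates (horizontal) and in WT adults (vertical) for each tested gene in grey, with G2/M and cortical genes coloured in the left panel and tuft and keratinised genes in the right panel. G2/M genes lie farther up than right, with medians of 0.45 in perinates and 1.57 in adults, and tuft genes farther down than left, with medians of -0.86 in perinates and -2.25 in adults.

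Proliferation separated the ages. All 27 tested G2/M genes were higher in adult GFP+ than adult GFP- cells, with a median of 1.57, and the interaction was negative for 21 of them and positive for 0. Without perinate GFP- array 1 it was negative for 13. Mki67 read 998, 1191 and 1308 in adult GFP+ cells, against 319, 323 and 423 in adult GFP- cells, with an interaction of -1.39 ± 0.21 (adjusted p = 0.000258). GFP+ levels of Mki67 overlapped between the ages, while perinate GFP- cells, at 1194 and 1157, read above every adult GFP- array. Of the 27 S phase genes 24 were higher in adults, and the interaction was negative for 15, or for 6 without perinate GFP- array 1 and 9 without perinate GFP+ array 5 or adult GFP- array 7. Top2a, which untangles replicated DNA, showed the same order of levels: 802, 1420 and 941 in perinate GFP+ cells and 617 and 567 in perinate GFP- cells, with 857, 852 and 1081 in adult GFP+ cells and 199, 229 and 325 in adult GFP- cells.

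Mimetic programmes separated them the other way. In adults 22 of 23 tuft genes were lower in GFP+ cells, with a median of -2.25, and the interaction was positive for 21, or for 13 without perinate GFP- array 2. Plcb2 read 117, 92.6 and 135 in adult GFP+ cells, against 1538, 2203 and 2351 in adult GFP- cells, so adult GFP- levels exceeded the perinate GFP- levels of 702 and 467. Gnat3 and Itpr3 were the exceptions, and Gnat3 had 48.4, 41.2 and 46.5 in adult GFP+ cells, against 701, 1000 and 1345 in adult GFP- cells, with an interaction that did not pass (0.49 ± 0.72, adjusted p = 0.696). Of the 25 keratinised genes 16 were lower and 2 higher in adults, with a median of -1.04, and the interaction was positive for 16. Krt77 was higher in GFP+ cells of perinates and lower in GFP+ cells of adults (778, 867 and 821 in adult GFP+ against 1526, 1080 and 1648 in adult GFP-), with an interaction of 2.05 ± 0.32 (adjusted p = 0.000274). Foxa1 likewise turned its direction, at 705, 489 and 572 in adult GFP+ cells against 1111, 1024 and 1075 in adult GFP- cells (interaction 2.14 ± 0.28, adjusted p = 7.84e-05).

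No cortical gene had a called positive interaction with all arrays fitted. Without perinate GFP+ array 7, adult GFP+ array 8 or adult GFP- array 7 there was 1. Of 19 tested members the interaction was negative for 11, and in adults 8 were higher and 5 lower. Psmb11 read 93.5, 101 and 110 in adult GFP+ cells, against 89.0, 102 and 88.9 in adult GFP- cells, all below the perinate GFP- values of 383 and 313 (interaction -1.76 ± 0.17, adjusted p = 2.95e-06). Cxcl12 showed the same pattern, with 78.3, 83.6 and 84.8 in adult GFP+ cells and 98.4, 98.8 and 108 in adult GFP- cells (interaction -2.75 ± 0.17, adjusted p = 8.68e-08). Of 13 fetal growth genes 7 had a negative interaction and 2 a positive one, against 9.27% and 10.7% of all genes. Bcam and Pax1 also had negative interactions, of -2.18 ± 0.24 and -1.51 ± 0.20, and neither passed in adults.

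Several genes were far brighter in adult GFP- cells than in perinate GFP- cells. Lyz2 read 5046, 5278 and 5255 in adult GFP+ cells, against 4502, 4659 and 3941 in adult GFP- cells, a far smaller gap than in perinates (interaction 3.81 ± 0.15, adjusted p = 1.42e-10). Cd80 read 3820, 3682 and 3357 in adult GFP+ cells, against 2725, 2394 and 1889 in adult GFP- cells (interaction 2.16 ± 0.24, adjusted p = 1.71e-05). Fezf2 read 3632, 4269 and 4312 in adult GFP+ cells, against 2974, 3272 and 2971 in adult GFP- cells (interaction 2.14 ± 0.23), and Syt1 read 5274, 6214 and 6135 in adult GFP+ cells, against 4026, 4959 and 3819 in adult GFP- cells (interaction 2.30 ± 0.19). For these genes the GFP- levels of the ages lay further apart than the GFP+ levels. Aire followed with 4355, 6196 and 4739 in adult GFP+ cells, against 645, 930 and 495 in adult GFP- cells (interaction 1.03 ± 0.31, adjusted p = 0.0255), a call lost without perinate GFP- array 1 (0.84), perinate GFP+ array 7 (0.945), adult GFP- array 7 (0.79), or adult GFP+ array 6 (0.924) or 8 (0.985). Cd40 had an interaction of 0.18 ± 0.16 that did not pass, with 3075, 3452 and 3228 in adult GFP+ cells against 861, 864 and 709 in adult GFP- cells. Tissue-restricted genes divided: the interaction was positive for 13 and negative for 2 of 25 gut genes, against 10.7% and 9.27% of all genes. It was positive for 5 and negative for 1 of 19 liver genes. Cyp1a2 and Tdo2 had log2 differences of 2.65 and 2.99 in perinates and 2.68 and 2.99 in adults.

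**Figure D5:**
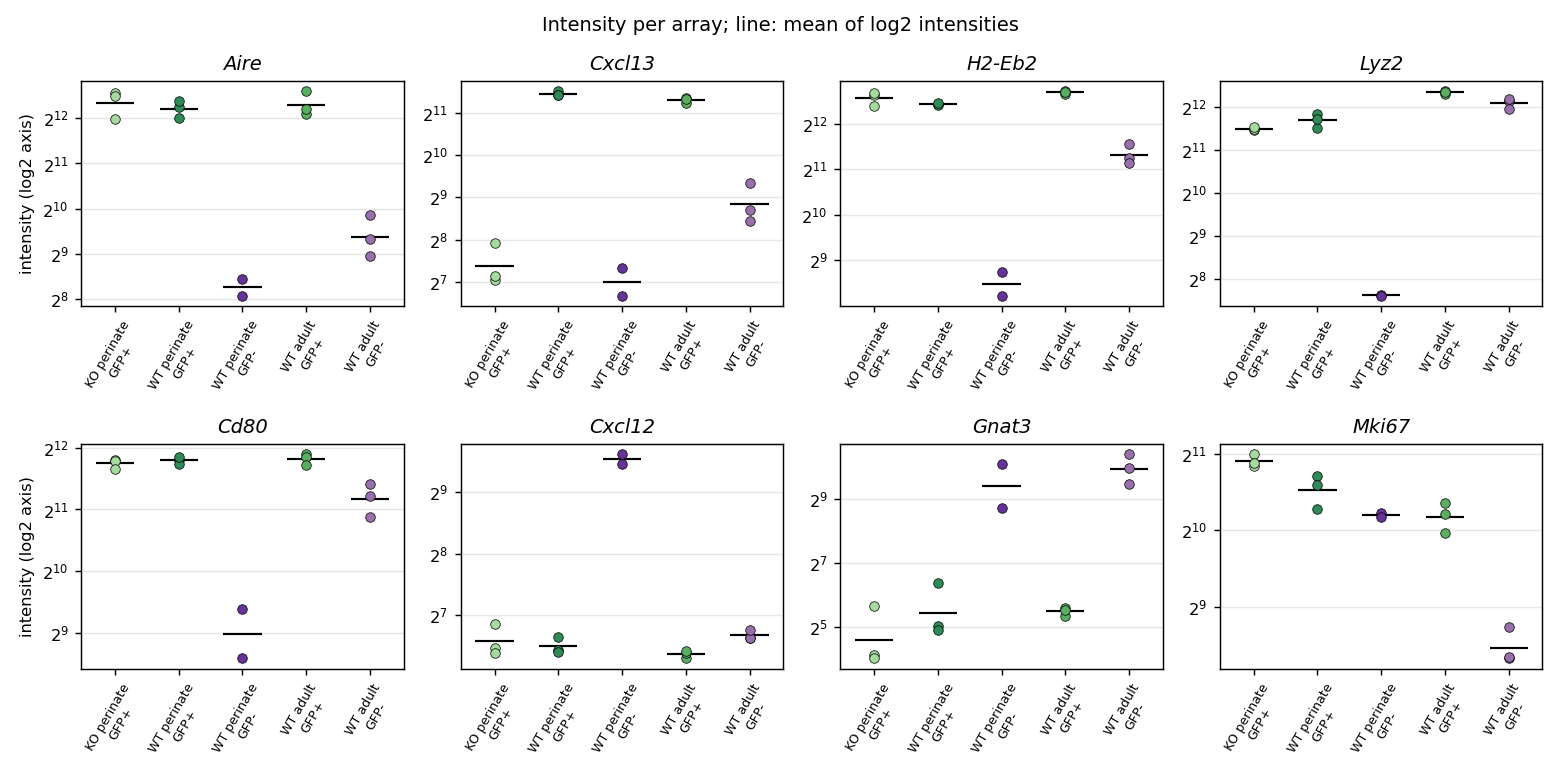
Intensity (log axis) of 8 genes on each array of 5 groups, from left to right KO perinate GFP+, WT perinate GFP+, WT perinate GFP-, WT adult GFP+ and WT adult GFP- cells. Lyz2, Cd80 and H2-Eb2 read lowest in WT perinate GFP- cells, though above the array medians, and Cxcl12 stands out in that group alone.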

How the data were processed

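RNA of 17 sorted samples was measured on gene arrays. The deposited intensities are linear and come from RMA in Affymetrix Power Tools, per the submitters' processing notes. Tool versions and the arrays that entered the normalization stay unstated, not given in the sources used here. Of 24922 probe sets 21425 carried 1 gene symbol, 1399 several and 2098 none, and those with 1 named 19752 genes. The brightest probe set of a gene was kept, and 13842 genes above the 40th percentile on at least 2 arrays were tested. Intensities were put on the log2 scale without a pseudocount. One limma 3.58.1 model (R 4.3.3) of 6 group means over 17 arrays gave all contrasts of the tested genes, with 11 residual degrees of freedom and 5.52 from the prior. P-values are two-sided, adjusted by Benjamini-Hochberg over the 13842 genes, and called under 0.05. The number of arrays limits the precision, and the median standard error was 0.145 (log2). The steps were tested on simulated data. No adjusted p or score was made over a list alone.

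The members and the 39 gene lists (750 genes, 684 measured, 579 tested) were chosen with earlier results of these data known. Genes named are the 15 largest called differences in each direction without overlap of arrays and with the brighter group above the 60th percentile, up to 6 called members of a list in each direction, its bright members that did not pass, the 6 largest interactions in each direction, and 8 genes set by name. Others are said to be picked after their values were seen. Alternatives changed the arrays fitted, normalization, filter, offset, probe set rule and variance model, and left out single arrays.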

Additional observations from a re-analysis of the deposited data

Results flagged for a closer look

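The 12 genes below were marked because their GFP+ over GFP- difference was not the same in WT perinates as in WT adults, by the interaction term of the limma model (log2, perinate minus adult). They are the 6 largest called interactions in each direction among characterised genes. Lyz2 (3.81), described above, and Lyz1 (3.08) are lysozymes. Lyz1 read 3554, 4452 and 3186 in perinate GFP+ cells, against 473 and 354 in perinate GFP- cells, and 5754, 6615 and 5997 in adult GFP+ cells, against 5499, 5936 and 5801 in adult GFP- cells. Il12rb2 (3.42), a chain of the interleukin-12 receptor, was higher in perinate GFP+ cells and lower in adult GFP+ cells. It read 343, 433 and 496 in perinate GFP+ cells, against 94.1 and 80.3 in perinate GFP- cells, and 394, 380 and 429 in adult GFP+ cells, against 984, 910 and 781 in adult GFP- cells. Ccl11 (3.77), the chemokine eotaxin, Sdr16c6 (2.97) and Clca1 (2.95) did not pass in perinates and were lower in adult GFP+ cells. Ccl11 read 372, 311 and 364 in perinate GFP+ cells, against 254 and 168 in perinate GFP- cells, without overlap, and 326, 470 and 460 in adult GFP+ cells, against 3863, 2042 and 4714 in adult GFP- cells. With only the 5 WT perinate arrays in the model Ccl11 was called higher in GFP+ cells (0.753, adjusted p = 0.0166).

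Ptprz1 (-3.37), a receptor phosphatase, and Nqo1 (-3.18), a quinone reductase, were lower in perinate GFP+ cells and higher in adult GFP+ cells. Nqo1 read 316, 274 and 166 in perinate GFP+ cells, against 1186 and 1154 in perinate GFP- cells, and 514, 473 and 510 in adult GFP+ cells, against 239, 270 and 291 in adult GFP- cells. Glrb (-2.97) did not pass in adults, while Cxcl12 (-2.75) and Dsc3 (-2.65) were lower in GFP+ cells at both ages. The interaction of Scgb2b27 (-3.32), a secretoglobin, rests largely on GFP- array 1, which read 291 beside 15.2 on GFP- array 2, with 18.3, 16.8 and 16.8 on the GFP+ arrays. Its perinate difference (-1.94, adjusted p = 0.0367) did not pass with only the 5 WT perinate arrays in the model (adjusted p = 0.137) or only the 11 WT arrays (adjusted p = 0.08). Without GFP- array 1 its interaction was -1.19, and without adult GFP+ array 8 it did not pass (-3.08, adjusted p = 0.0509), nor with only the 11 WT arrays in the model (-3.32, adjusted p = 0.0612).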

How the results depend on the processing

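The counts of called genes stayed within 1.5 times of those reported under every setting tried. Genes higher in GFP+ cells numbered 3176, with 2385 to 3194 when single arrays were left out and 2431 to 3603 otherwise, and genes lower 2839, with 2060 to 2738 and 2029 to 3168. At least 2-fold higher genes numbered 1101 (1025 to 1247, and 762 to 1132) and at least 2-fold lower genes 717 (646 to 893, and 499 to 775). Positive interactions numbered 1478 (1037 to 1528, and 1240 to 1697) and negative ones 1283 (886 to 1441, and 1024 to 1428). Of the 6015 calls, 73.5% were made in the same direction with only the 5 WT perinate arrays, 75.8% without GFP- array 1, 76.5% without GFP- array 2 and 79% with array weights. The median of all genes moved to -0.0233 after quantile normalization. Over 186 differences of named genes and 2926 comparisons with an alternative, 38 calls were lost, 4 gained and 8 signs turned. The sign turned for genes on which both GFP- arrays disagreed, and the cause was not tested. Without GFP- array 1 and without GFP- array 2 the perinate differences were 1.85 and -5.37 for Bpifa2, 2.22 and -1.70 for Car6, 0.11 and -0.334 for Krt8, 0.0409 and -0.825 for Sdr16c6, 1.16 and -0.261 for Clca1, and 0.186 and -4.07 for Scgb2b27, and the interaction of Gnat3 was 1.16 and -0.19. Car6 also read -0.0128 without GFP+ array 7. No paired analysis was possible because the perinate GFP+ samples are numbered 5 to 7 and the GFP- samples 1 and 2. The adult groups share numbers 6 to 8, and with those as a replicate block 1512 interactions were positive and 1304 negative. With 2 GFP- arrays, small differences are beyond what the arrays can resolve, and genes near the 40th percentile have uncertain folds.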

Other observations

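Gene families named by a shared symbol stem, picked after their values were seen and given without a test, held further differences in WT perinates, against 22.9% of all genes higher and 20.5% lower in GFP+ cells. Among Klk genes, the kallikrein proteases, 13 of 21 tested were higher and 0 lower, with a median of 0.858. Among Cacna genes, subunits of voltage-gated calcium channels, 9 of 10 were higher and 0 lower, with a median of 0.625. Hsd genes, hydroxysteroid dehydrogenases, gave 9 higher and 0 lower of 13 (median 0.966), and Il genes, interleukins and their receptors, 29 higher and 5 lower of 57 (median 0.509). Zinc finger genes with the stem Zfp ran the other way, with 17 higher and 81 lower of 263. Of 24 small nucleolar RNA genes with the stem Snord 12 were lower and 0 higher, and of 15 Klf genes, Krüppel-like factors, 7 were lower and 2 higher. Some Snord genes differed between the GFP- arrays. Snord49b, called lower, read 1888 on GFP- array 1 and 5483 on GFP- array 2. Snord14e, not called, read 546 and 2684 there, and 908, 388 and 1943 on the GFP+ arrays. Family counts were not made with single arrays left out. Members of a family can share probe sequence, and cross-hybridisation was not tested.

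Probe sets left unnamed were fitted apart from the genes, with the adjustment over these probe sets alone. Of 875 tested probe sets with several symbols 157 were higher and 99 lower in GFP+ cells, and of 1229 with no symbol 207 were higher and 190 lower, with 83 and 32 of these at least 2-fold. These shares lay below the 22.9% higher and 20.5% lower over all genes tested.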
